A study of Homo sapiens with 20 samples.

Results

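Interferon-stimulated genes were followed as 1 module across a pair of human carcinoma cell lines treated with an siRNA against KLF10 (siKLF10), with TGFβ, or with both. The module was a list of 51 gene symbols, chosen by name as interferon-stimulated, and 51 of 51 were found among the 23368 genes of the count files. Libraries were polyadenylated RNA, sequenced as 3 libraries per group in Panc1, a line from a pancreatic ductal carcinoma, and 2 per group in A549, a line from a lung adenocarcinoma. Each line had 4 groups. The siKLF10+TGFβ group had the KLF10 siRNA and TGFβ, the siKLF10 group the KLF10 siRNA alone, the TGFβ group TGFβ, and the siCont group a control siRNA. The 2 groups labelled with TGFβ had it at 5 ng/ml over 72 h. The labels name no siRNA for the TGFβ group, so in comparisons with that group the named treatment and the presence of any siRNA cannot be told apart. The labels give both lines an SV40 large T antigen immortalization, and neither the siRNA sequences nor their number per target are stated, so siKLF10 is 1 reagent by its label. Nothing in the labels says that the libraries of a group were separate cultures, and p-values therefore cover the spread between the sequenced libraries, part or all of which may be technical.

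Interferons bind receptors that activate the kinases JAK1, TYK2 and JAK2, which phosphorylate STAT proteins. A complex that holds STAT2 and IRF9 then binds the interferon-stimulated response element (ISRE) in promoters, while STAT pairs bind the gamma-activated site (GAS). The genes switched on in this way sense viral RNA, block viral entry, degrade or sequester RNA, and modify proteins with the ubiquitin-like ISG15. Many are also transcribed at a low level without added interferon. KLF10 is a zinc-finger transcription factor that TGFβ itself induces.

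The promoters are shown because interferon acts on such genes through these elements. RefSeq promoters of build GRCh38.p14, from 250 bases before to 50 after each listed start, were matched for 41 members with 55 promoters. IFIT2, IFITM2, MX2, OAS2, OASL, DHX58, IRF7, USP18, TRIM22 and GBP2 had no entry in the promoter table. The ISRE core was searched on both strands as TTTCNNTTTC and its reverse complement GAAANNGAAA, and the GAS as TTCNNNGAA, which is its own reverse complement. An ISRE core stood in 27 of 41 members (65.9%), against 4.38% of the 27305 genes in the table. By promoter the share was 31 of 55 (56.4%), against 3.57% of all 35116 promoters. A GAS stood in 12 of 41 members (29.3%), against 9.38% of genes, and in 13 of 55 promoters (23.6%), against 7.66% of promoters. Matches may overlap one another, as they do in IFIH1, ISG15, HERC5, BST2 and TRIM21, and a GAS overlapped an ISRE core in IFI27, MX1, IFITM1 and BST2. A match describes the letters and does not show that a factor binds.

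The windows below belong to members named in the comparisons, run 5′ to 3′ in the direction of transcription, and carry the searched motif in capitals (ISRE core in all but IRF1 and IRF9, GAS in those).
IFI6, upstream: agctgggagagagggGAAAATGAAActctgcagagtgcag
IFI6, middle: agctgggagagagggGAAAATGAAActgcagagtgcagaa
IFI6, downstream: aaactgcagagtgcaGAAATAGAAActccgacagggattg
IFIT1: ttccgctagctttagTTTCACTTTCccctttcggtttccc
SAMD9: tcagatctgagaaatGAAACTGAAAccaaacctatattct
DDX60: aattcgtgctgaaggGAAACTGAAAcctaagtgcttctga
ISG15: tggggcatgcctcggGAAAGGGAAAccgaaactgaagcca
PARP9: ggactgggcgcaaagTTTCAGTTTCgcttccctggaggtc
GBP1: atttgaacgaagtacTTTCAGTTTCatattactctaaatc
IFITM1: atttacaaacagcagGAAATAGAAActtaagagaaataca
IFITM3: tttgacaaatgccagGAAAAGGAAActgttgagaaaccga
IRF1: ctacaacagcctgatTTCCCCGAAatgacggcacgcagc
IRF9: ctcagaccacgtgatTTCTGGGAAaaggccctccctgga

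All of these windows lie wholly upstream of the listed start. The IFI6 windows are at chr1:27672324-27672363 (minus strand), chr1:27672283-27672322 (minus strand) and chr1:27672261-27672300 (minus strand), and the upstream and middle windows begin with the same letters up to and past the element. IFIT1 is shown at chr10:89392492-89392531 (plus strand), where a second core in lower case follows the capitals, SAMD9 at chr7:93118091-93118130 (minus strand) and DDX60 at chr4:168318816-168318855 (minus strand). ISG15 is shown at chr1:1013369-1013408 (plus strand), with an overlapping second core, and GBP1 at chr1:89065311-89065350 (minus strand). PARP9 is shown at chr3:122564317-122564356 (minus strand), and the single ISRE core of DTX3L, its neighbour on the opposite strand, was found in the same window. IFITM1 is shown at chr11:313985-314024 (plus strand) and IFITM3 at chr11:320888-320927 (minus strand). The GAS windows are at chr5:132490874-132490912 (minus strand) for IRF1 and chr14:24161187-24161225 (plus strand) for IRF9.

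**Figure D1:**
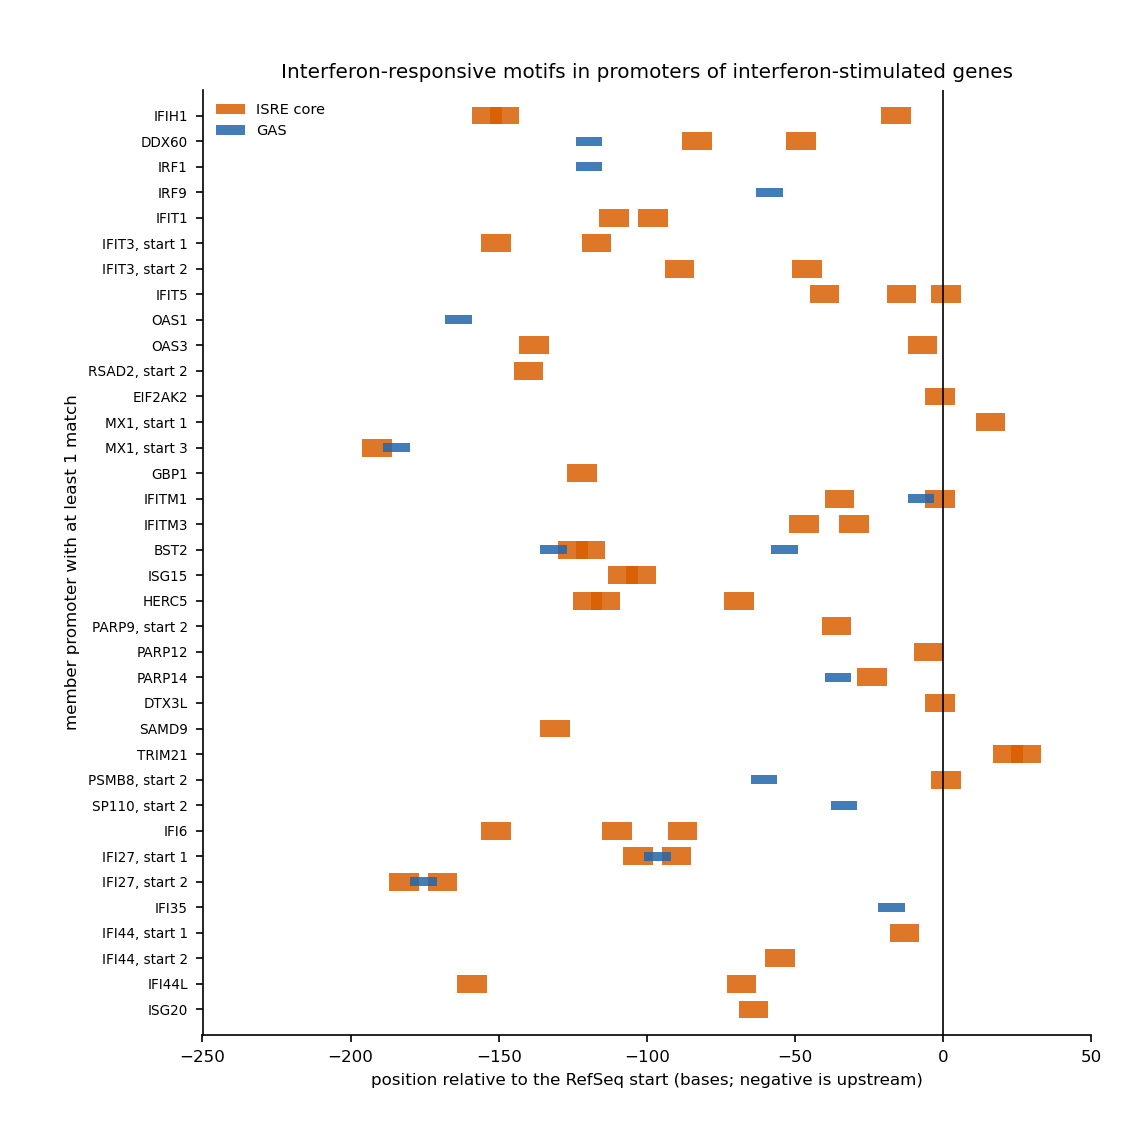
Positions of ISRE cores (orange) and GAS matches (blue) in the promoters of members with at least 1 match, in bases from the RefSeq start (vertical line), 1 row per promoter. Most ISRE cores sit upstream of the start, those of MX1 start 1 and TRIM21 sit after it, and IRF1 and IRF9 hold a GAS and no ISRE core.

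Gene counts per library summed to 11152625 to 15571367 in Panc1 and 6846761 to 19070551 in A549, so that 3 counts corresponded to 0.193 to 0.269 and 0.157 to 0.438 counts per 1e6 gene counts (CPM). Levels below are CPM of gene counts, and log2 fold changes are from edgeR's quasi-likelihood test, with a gene called at a Benjamini-Hochberg adjusted p under 0.05. KLF10 measured 101, 101 and 104 CPM in Panc1 siKLF10+TGFβ against 192, 187 and 206 CPM in TGFβ libraries, and 83, 80.7 and 77.5 CPM in siKLF10 against 140, 137 and 130 CPM in siCont libraries. In A549 it measured 151 and 142 CPM in siKLF10+TGFβ against 179 and 179 CPM in TGFβ, and 102 and 109 CPM in siKLF10 against 110 and 107 CPM in siCont libraries. The targeted transcript was therefore lower in both Panc1 pairs and in A549 under TGFβ (log2 fold change −0.29 ± 0.08 SE, adjusted p = 0.00776), but not detectably in A549 without TGFβ (log2 fold change −0.05 ± 0.08 SE, adjusted p = 0.743), and results there are given for the libraries labelled siKLF10. The Panc1 siCont library A stood apart in KRT5, a basal keratin, at 60.6 CPM against 21.8 and 22.3 CPM in siCont B and C. Counts of members called against Panc1 siCont are also given without siCont A. Other groups were uneven too. The chi-square per degree of freedom between counts of siCont A and those of B and C was 3.29 and 9.42. Between siCont B and C it was 5.71. By this measure A and B were the closest siCont pair, and A was not the library furthest from the others. The value was 9.11 and 12.5 for Panc1 siKLF10+TGFβ A against B and C, and 2.06 between B and C. Panc1 siKLF10 A and B gave 10.5, and the A549 siKLF10+TGFβ libraries 11.4. Of the duct markers, PDX1 stood at 3 counts or fewer in every Panc1 group. Of the lung markers in A549, SFTPA1 and SFTPB were at 3 counts or fewer in all 4 groups. Of the leukocyte markers, PTPRC, CD3E, LILRA4, CLEC4C and IL3RA stood at 3 counts or fewer in every group of both lines, so that only CD14 was measurable. In bulk samples such as these, fewer cells of a type and less RNA per cell cannot be told apart.

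Interferon-stimulated transcripts were detectable in both lines without any interferon being listed among the treatments. In single libraries 45 to 49 of the 51 members had at least 1 count. The filter on low counts left 44 members in the Panc1 fit, 41 in the A549 fit and 46 in the joint fit of both lines. Left out of both single-line fits were BST2, the virus-tethering protein tetherin, RSAD2, the antiviral enzyme viperin, its neighbour CMPK2, a nucleotide kinase, and the immunoproteasome subunits PSMB8 and PSMB9. PSMB8 was listed at 0 counts in all 20 libraries and PSMB9 at 1 count in 1 library. The authors' deposited table of siKLF10 against Cont in A549 lists base means of 485 for PSMB8 and 344 for PSMB9, where the count files hold 0 in the same groups, so these zeros are not read as absent expression, and their cause was not tested. IFI27 and IFI44L were too low to fit in Panc1 only, at no more than 8 and 9 counts per library. IFITM1, MX2, OAS2, DHX58 and XAF1 were too low in A549 only, at no more than 6, 4, 13, 6 and 3 counts. IFITM1, IFITM2 and IFITM3 are close paralogs, as are SAMD9 with SAMD9L and the IFIT genes, and how reads shared between paralogs were counted is not stated. The library kit keeps strand, but whether the counting used it is not stated either, so levels of neighbours on opposite strands, such as PARP9 and DTX3L, are uncertain where their transcripts overlap.

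The lines differed in which members they expressed at baseline. Of 39 members that passed the filter in each line by itself, 22 were higher in Panc1 siCont than in A549 siCont (56.4%, against 41.9% of all genes fitted in both lines) and 11 were lower (28.2%, against 39.9%). The joint fit of 46 members gave 26 higher (56.5%, against 39% of all genes) and 12 lower (26.1%, against 42.9%), or 26 and 13 without Panc1 siCont A. The 5 calls it added, for MX2, IFITM1, XAF1, DHX58 and IFI27, are of members that passed the filter through 1 line only and so had to differ, and their levels are given with no test. MX2, a GTPase that acts at the nuclear pore against retroviruses, measured 30.3, 29.8 and 29.5 CPM in Panc1 siCont, against 0.218 and 0.35 CPM in A549 siCont, where these are 3 and 4 counts. IFITM1, which blocks viral fusion at the cell surface, measured 20.7, 22.9 and 20.6 CPM in Panc1 siCont, against 0.29 and 0.175 CPM in A549 siCont, where it had 4 and 2 counts. XAF1, a pro-apoptotic partner of XIAP, measured 5.45, 3.62 and 2.26 CPM in Panc1 siCont, against 0.145 and 0 CPM in A549 siCont. The RNA sensor DHX58 measured 2.43, 2.91 and 2.13 CPM in Panc1 siCont, against 0 and 0.437 CPM in A549 siCont, and IFI27, a mitochondrial protein, 0.221, 0.236 and 0.266 CPM in Panc1 siCont, against 4.64 and 3.24 CPM in A549 siCont. IFI27 was lower in Panc1 and the others higher, without overlap of the groups. IFITM3, the endosomal member of the IFITM family, was fitted in both lines and measured 234, 237 and 248 CPM in Panc1 siCont, against 5.58 and 5.07 CPM in A549 siCont (log2 fold change 5.45 ± 0.23 SE, adjusted p = 1.1e-12). Lower in Panc1 than in A549 were OAS1 (−4.87), HERC6 (−3.24), GBP1 (−2.89), GBP2 (−2.65) and ISG20 (−2.6), as log2 fold changes. The line and anything that differed with it in handling cannot be told apart.

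**Figure D2:**
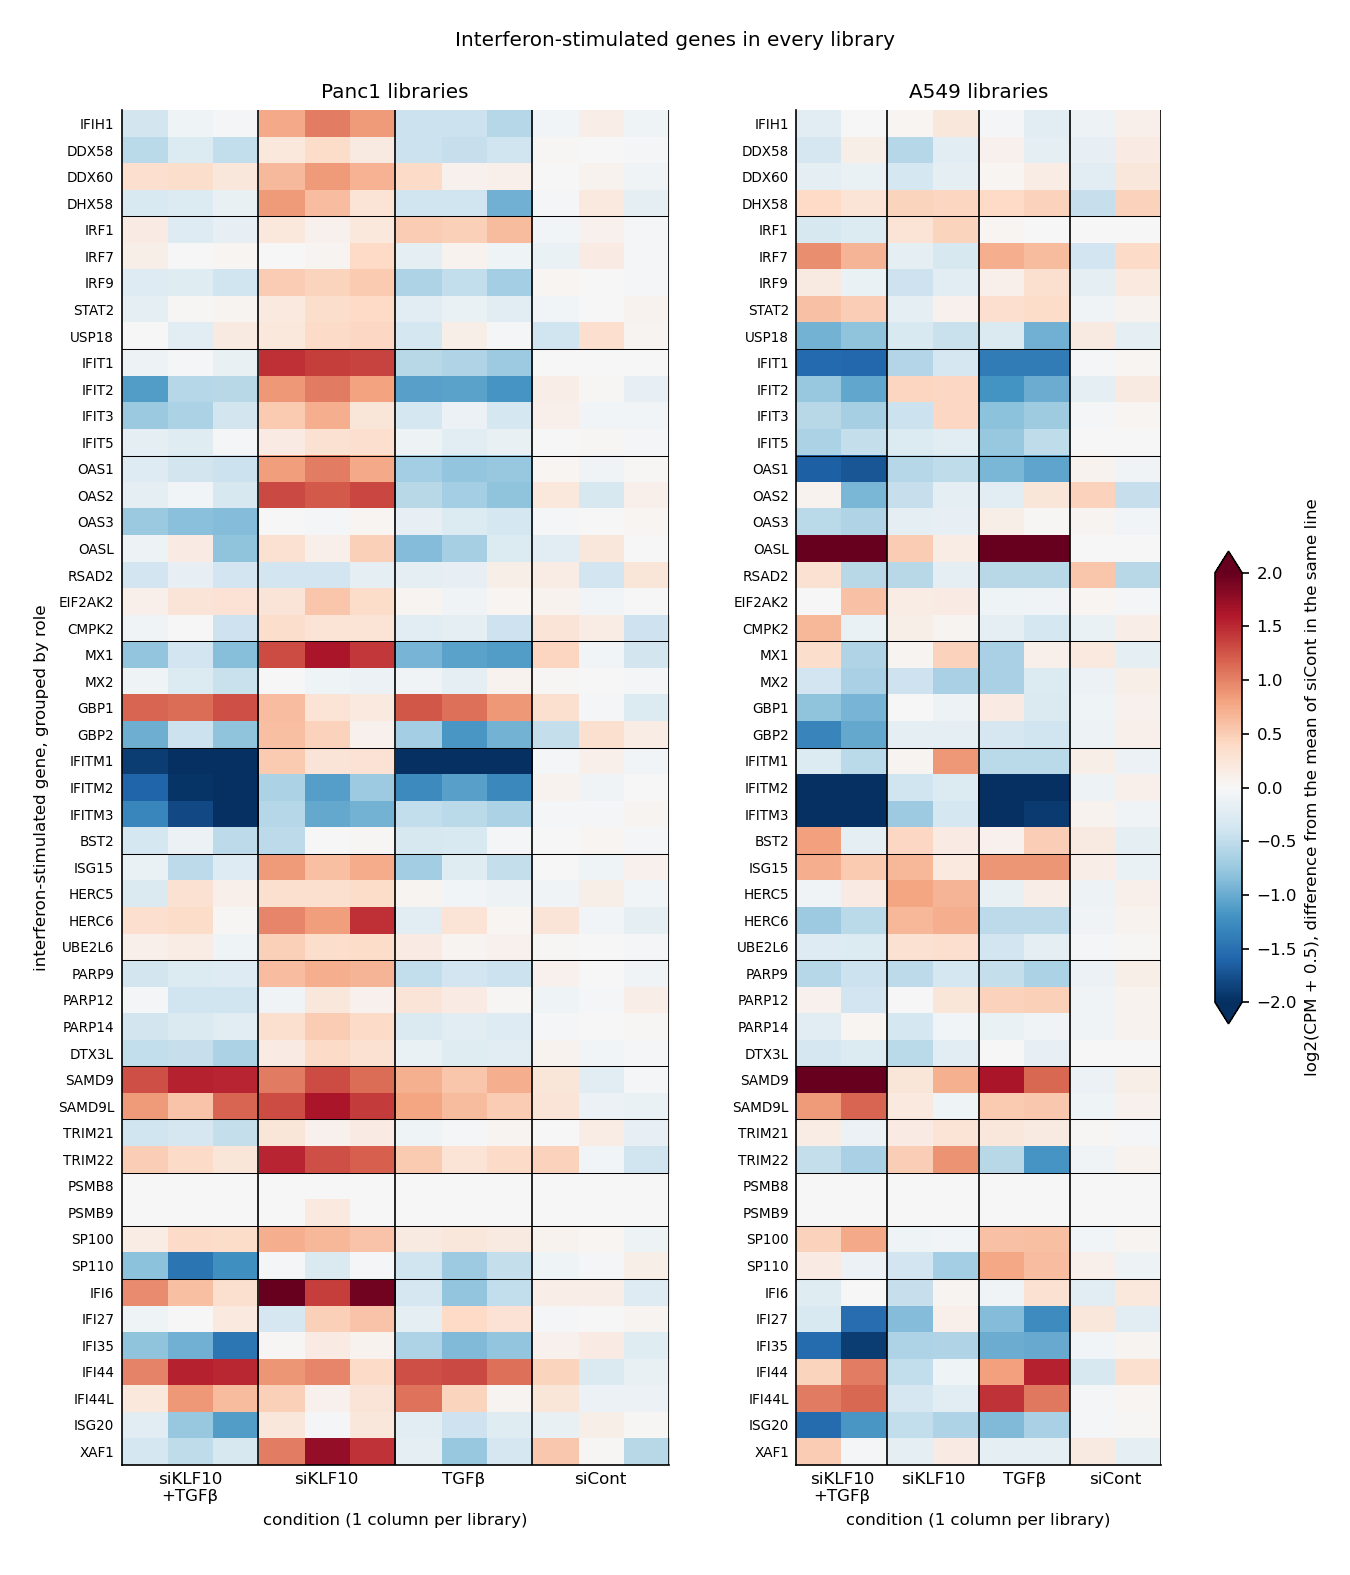
Level of each of the 51 members in every library as log2(CPM + 0.5) minus the mean of the same line's siCont libraries, with members in rows by role, 1 library per column, and colours ending at −2 and 2. The Panc1 siKLF10 columns are red for most sensors, IFIT, OAS and PARP members, the siKLF10+TGFβ columns of Panc1 are not, and A549 shows no such block.

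In Panc1 without TGFβ, the KLF10 siRNA went with higher levels across most of the module. Of 44 fitted members, 28 rose (63.6%, against 17.3% of all genes) and 2 fell (4.55%, against 18.3%), with a median log2 fold change of 0.45 over the members and 0.0009 over all genes. The siKLF10 group had the highest mean level of the 4 Panc1 groups for 34 of the 44 members. That order rests on the same siKLF10 libraries and was not computed over all genes, so it adds nothing to the calls. Summed over the 51 members, siKLF10 libraries held 1524 to 1566 CPM, against 1252 to 1273 CPM in siCont libraries. Without siCont library A the counts stayed at 28 higher and 2 lower, with IFI6 at 2.0, TRIM22 at 2.47, MX1 at 1.84 and OAS2 at 1.71 on the log2 scale, all called. Leaving out each library in turn gave 26 to 28 higher.

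All 4 sensors of viral RNA rose, namely IFIH1 (MDA5) by 0.9, DDX60 by 0.77, DHX58 (LGP2) by 0.69 and DDX58 (RIG-I) by 0.26 on the log2 scale. Among the 5 regulators, IRF9, the DNA-binding part of the STAT complex, rose by 0.49 and STAT2 by 0.32. The regulators IRF1, IRF7 and USP18 were not called, at 0.18, 0.17 and 0.38. All 4 IFIT genes, whose proteins bind foreign or incompletely capped RNA, rose, with IFIT1 at 1.44, IFIT2 at 0.94, IFIT3 at 0.53 and IFIT5 at 0.28. IFIT1 measured 33.1, 31.2 and 30.6 CPM in siKLF10 libraries A, B and C, against 11.6, 11.7 and 11.8 CPM in siCont libraries. The groups were far apart and each was tight, a 2.7-fold difference (log2 fold change 1.44 ± 0.09 SE, adjusted p = 5.6e-11).

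Of the oligoadenylate synthetases, which make the messenger that activates RNase L, OAS2 measured 3.77, 3.47 and 3.79 CPM in siKLF10, against 1.47, 0.866 and 1.33 CPM in siCont libraries. All siKLF10 libraries lay above all siCont libraries (log2 fold change 1.57 ± 0.23 SE, adjusted p = 1.98e-05). OAS1 rose by 0.98, while OAS3 stood at −0.00092 and OASL at 0.47, neither called. EIF2AK2 (PKR), the kinase that halts translation on double-stranded RNA, rose by 0.4. MX1, a GTPase that traps viral nucleocapsids, measured 8.73, 11 and 9.39 CPM in siKLF10, against 4.49, 3.07 and 2.39 CPM in siCont libraries. The groups did not overlap, although siCont A was the highest of its group (log2 fold change 1.56 ± 0.19 SE, adjusted p = 1.09e-06). The other GTPases were not called, with MX2 at −0.07, GBP1 at 0.55 and GBP2 at 0.43.

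IFI6, a small antiviral membrane protein of the endoplasmic reticulum, measured 87.4, 47 and 68.6 CPM in siKLF10, against 19.4, 19.4 and 14.6 CPM in siCont libraries. The siKLF10 libraries spread widely but all lay above siCont, a 3.8-fold difference (log2 fold change 1.93 ± 0.25 SE, adjusted p = 0.00032). TRIM22, a ubiquitin ligase that restricts several viruses, measured 2.4, 1.96 and 1.82 CPM in siKLF10, against 0.883, 0.472 and 0.266 CPM in siCont libraries. Its levels were low, with siCont A the highest of its group, and the groups did not overlap (log2 fold change 1.92 ± 0.34 SE, adjusted p = 0.000151). TRIM21, the cytosolic antibody receptor, stood at 0.16 and was not called. The growth-suppressing SAMD9 and SAMD9L rose by 1.16 and 1.56, XAF1 by 1.5 and IFI44 by 0.94. ISG15 conjugation was represented by ISG15 itself (0.75), its conjugating enzyme UBE2L6 (0.41) and the ligase homologue HERC6 (1.5), all called, while HERC5, the main human ISG15 ligase, was at 0.35 and not called. The ADP-ribosyltransferases PARP9 (0.67) and PARP14 (0.41) and the PARP9 partner DTX3L (0.29) rose, as did the nuclear-body protein SP100 (0.66). PARP12, SP110, IFI35 and ISG20 were not called, at 0.08, −0.12, 0.09 and 0.16.

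The membrane factors did not move as 1 family. IFITM1 rose by 0.36, whereas IFITM2 and IFITM3 were the only members called lower, at −0.85 and −0.83. IFITM3 measured 162, 118 and 125 CPM in siKLF10 libraries, against 234, 237 and 248 CPM in siCont libraries, without overlap. CD14, the only measurable leukocyte marker, brought that marker list to 1.44 to 2.41 CPM in siKLF10, against 0.957 to 1.66 CPM in siCont libraries, without a call (0.32). The duct keratins KRT7 (−1.53) and KRT19 (−0.24) and the duct factor SOX9 (−0.18) fell, and the fibroblast collagen-binding gene LUM rose (1.1). LUM had 14, 12 and 12 counts in siKLF10, against 4, 8 and 7 in siCont libraries. It passed the low-count filter in Panc1 only with libraries of the groups given siKLF10, so the filter favoured its rise. The fibroblast list stood at 12.7 to 13.4 CPM in siKLF10, against 11.2 to 13.0 CPM in siCont libraries. The size of the KRT7 fall leans on siCont A. It had 361 counts there, 133 and 168 in siCont B and C, and 72, 74 and 66 in siKLF10 libraries. The part of these markers in the results was not tested. Members with and without an ISRE core in their promoter window had similar medians, 0.47 over 22 fitted members with the motif (15 higher, 1 lower) and 0.45 over 12 without (9 higher, 0 lower).

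**Figure D3:**
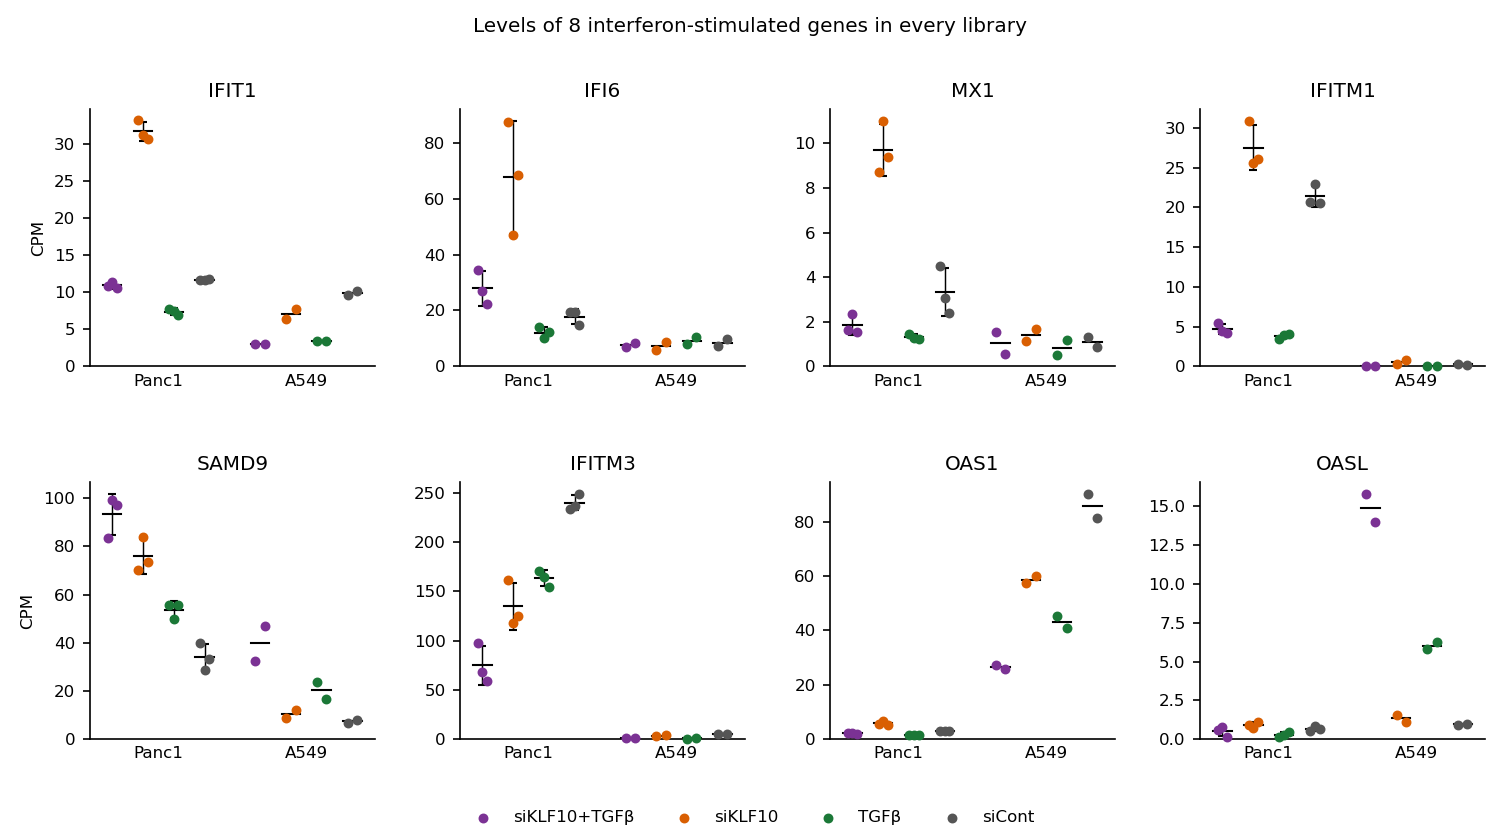
CPM of 8 members in every library (points), with the group mean (horizontal line) and, for groups of 3, the SD (error bars), from siKLF10+TGFβ on the left to siCont on the right in each line. IFIT1, IFI6 and MX1 peak in Panc1 siKLF10, IFITM1 is low in both TGFβ groups of Panc1, SAMD9 is highest in siKLF10+TGFβ in both lines, and OASL is high in the TGFβ groups of A549 only.

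With TGFβ present, the siRNA went with few changes beyond the background in Panc1. Between siKLF10+TGFβ and TGFβ, 6 members rose (13.6%, against 21.1% of all genes) and 8 fell (18.2%, against 20.6%), with a member median of 0.12. Both shares lie below those of all genes. The 6 that rose, IFI6, SAMD9, IFIT1 (0.57), IFIH1 (0.33), IRF9 (0.31) and EIF2AK2 (0.21), had each risen without TGFβ, in comparisons that share no library. They are 100% of the 6 and 21.4% of the 28, while over all genes the shares were 54% and 66.1%. Of the 8 that fell, IFITM2 and IFITM3 had fallen without TGFβ (25% of the 8, against 58.6% over all genes), and DTX3L (−0.34) had risen. IFI6 measured 34.6, 27 and 22.2 CPM in siKLF10+TGFβ, against 13.9, 9.98 and 12.4 CPM in TGFβ libraries. All siKLF10+TGFβ libraries were higher, 2.32-fold on average (log2 fold change 1.21 ± 0.28 SE, adjusted p = 0.00693). SAMD9 measured 83.3, 99.1 and 97.3 CPM in siKLF10+TGFβ, against 55.7, 49.9 and 55.8 CPM in TGFβ libraries, also without overlap (log2 fold change 0.79 ± 0.10 SE, adjusted p = 1.96e-06). IFITM3 measured 97.1, 68.6 and 59.5 CPM in siKLF10+TGFβ, against 170, 164 and 154 CPM in TGFβ libraries. All 3 were lower (log2 fold change −1.11 ± 0.17 SE, adjusted p = 0.000496). IFITM2, its closest paralog, measured 5.07, 3.83 and 3.12 CPM in siKLF10+TGFβ, against 6.54, 7.51 and 6.46 CPM in TGFβ libraries, lower in all 3 (log2 fold change −0.74 ± 0.17 SE, adjusted p = 0.00156). The other members that fell were IRF1 (−0.63), SP110 (−0.63), OAS3 (−0.56), PARP12 (−0.41) and TRIM21 (−0.39).

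**Figure D4:**
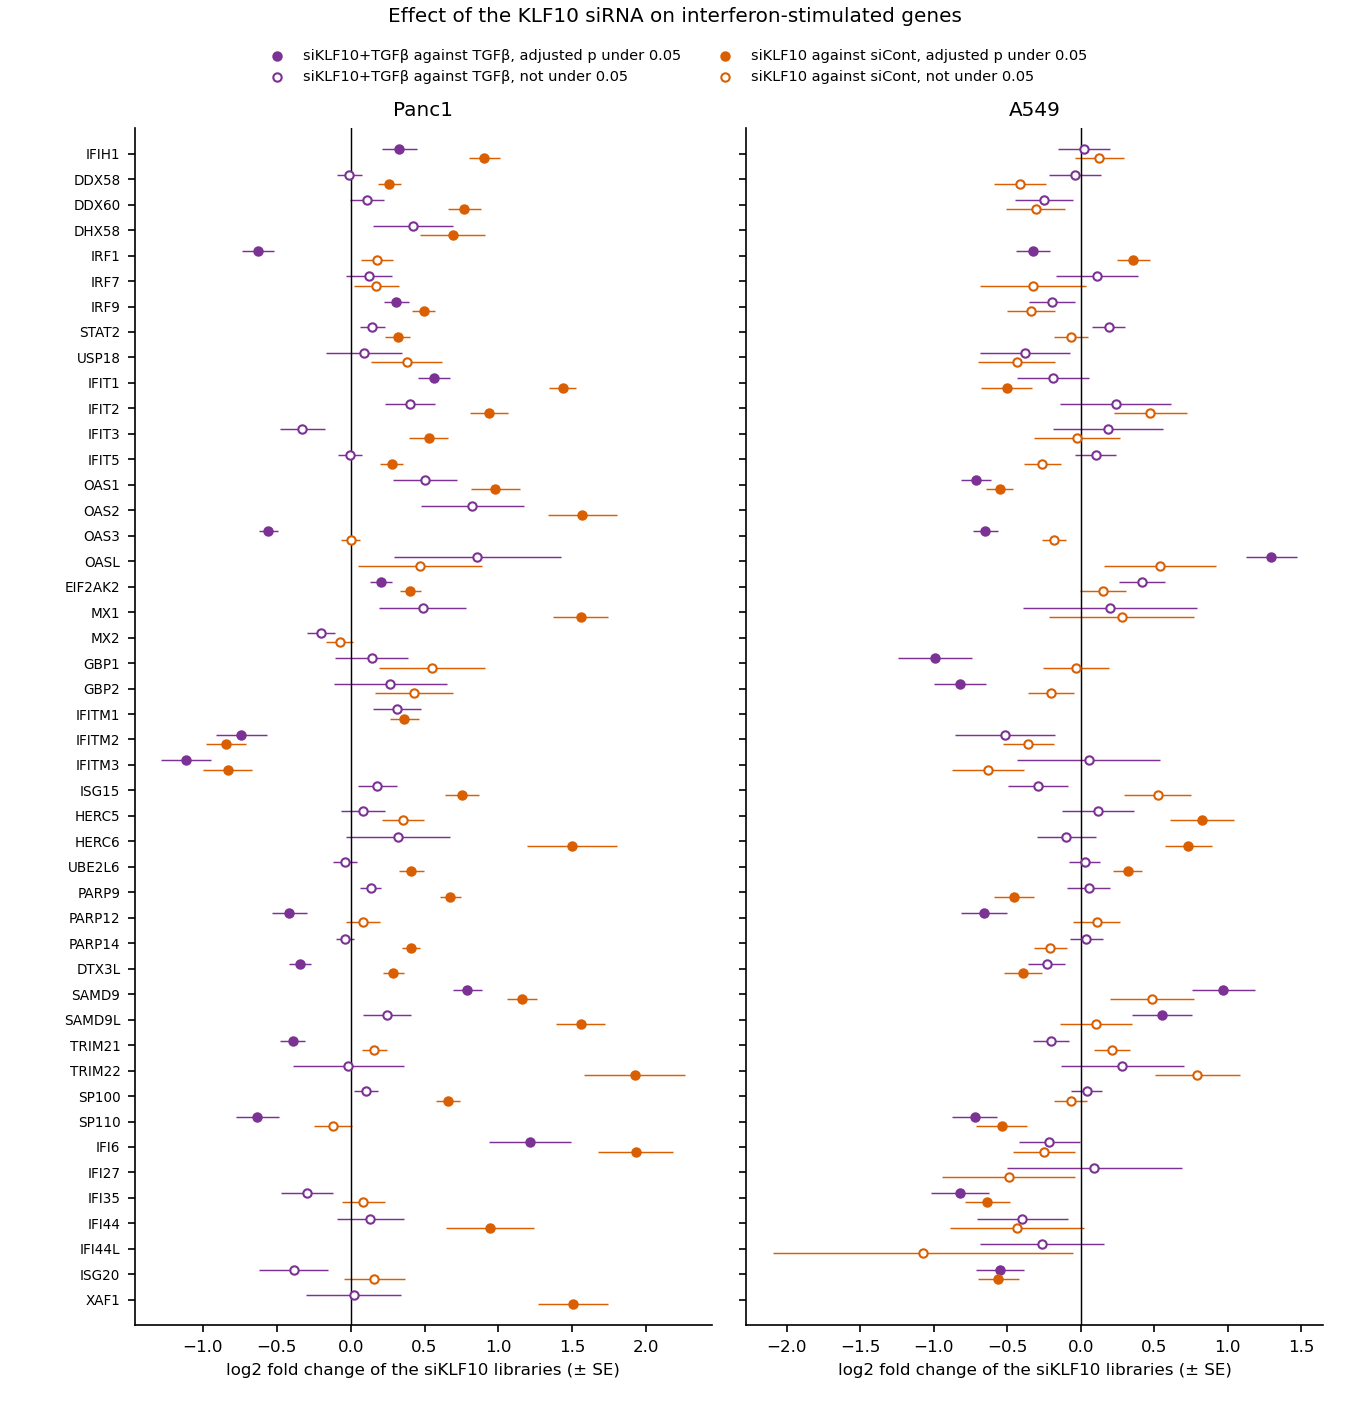
Log2 fold change of the siKLF10 libraries (± SE) for each fitted member, with TGFβ (purple, siKLF10+TGFβ against TGFβ) and without it (orange, siKLF10 against siCont), filled where the adjusted p was under 0.05. In Panc1 the orange points lie mostly right of 0 and the purple points nearer to it, with IFITM2 and IFITM3 left of 0 in both, and in A549 neither set leans to the right.

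Without siKLF10, more members fell than rose with TGFβ in Panc1. Of 44 fitted members, 20 fell (45.5%, against 15.1% of all genes) and 5 rose (11.4%, against 14%), with a member median of −0.27 and −0.0048 over all genes. Without siCont library A, 16 fell and 5 rose, with IFITM1 at −2.51, MX1 at −1.04, GBP1 at 1.83 and IFI44 at 1.86 on the log2 scale, all called. IFITM1 measured 3.49, 3.91 and 4.01 CPM in TGFβ libraries, against 20.7, 22.9 and 20.6 CPM in siCont libraries. The groups were widely separated, and the level was 5.61-fold lower with TGFβ (log2 fold change −2.49 ± 0.13 SE, adjusted p = 5.58e-13). IFITM2 (−1.27) and IFITM3 (−0.55) fell with it. MX1 measured 1.45, 1.28 and 1.22 CPM in TGFβ, against 4.49, 3.07 and 2.39 CPM in siCont libraries, lower in all 3 (log2 fold change −1.32 ± 0.26 SE, adjusted p = 0.00038). Also lower were the sensors DHX58 (−0.73), IFIH1 (−0.5) and DDX58 (−0.43), the regulator IRF9 (−0.61), IFIT2 (−1.2) and IFIT1 (−0.66), and OAS2 (−1.12), OAS1 (−0.92) and OAS3 (−0.26). The remaining members that fell were GBP2 (−1.29), IFI35 (−0.82), SP110 (−0.55), ISG15 (−0.49), PARP9 (−0.44), PARP14 (−0.25) and DTX3L (−0.2).

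A handful of members moved the other way. GBP1, a guanylate-binding GTPase that coats intracellular pathogens, measured 2.25, 2.0 and 1.63 CPM in TGFβ, against 0.957, 0.63 and 0.466 CPM in siCont libraries. Levels were low, and all TGFβ libraries were higher (log2 fold change 1.51 ± 0.31 SE, adjusted p = 0.000566). IFI44, an interferon-induced cytoplasmic protein, measured 3.56, 3.67 and 3.06 CPM in TGFβ, against 1.77, 0.866 and 0.998 CPM in siCont libraries, likewise without overlap and with siCont A the highest of its group (log2 fold change 1.49 ± 0.28 SE, adjusted p = 0.000197). SAMD9 (0.66), SAMD9L (0.7) and IRF1 (0.56) also rose.

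Markers of other cell types moved with TGFβ in Panc1 as well. The leukocyte list, measurable through CD14 only, summed to 0.204 to 0.436 CPM in TGFβ, against 0.957 to 1.66 CPM in siCont libraries, and CD14 fell (−2.09). The fibroblast list summed to 26.5 to 30.2 CPM in TGFβ, against 11.2 to 13.0 CPM in siCont libraries, with COL3A1 (1.16) and FAP (3 counts or fewer in siCont) higher, LUM not called (0.61), and COL1A2 and DCN at 3 counts or fewer. In Panc1, FAP passed the low-count filter only through groups with TGFβ and CD14 only through those without it. The filter thus favoured the calls of both with TGFβ. Among duct markers KRT7 (−1.74) and KRT19 (−1.93) fell and SOX9 was not called (−0.08). The size of the KRT7 fall again leans on siCont A. KRT7 had 361 counts there, 133 and 168 in siCont B and C, and 73, 80 and 42 in TGFβ libraries. With siKLF10 present, CD14 fell again (−1.74) and brought its list to 0.347 to 0.724 CPM in siKLF10+TGFβ, against 1.44 to 2.41 CPM in siKLF10 libraries. COL3A1 (1.08) and FAP (3 counts or fewer in siKLF10) rose there, with the fibroblast list at 26.5 to 29.0 CPM in siKLF10+TGFβ, against 12.7 to 13.4 CPM in siKLF10 libraries, while KRT19 fell (−2.19) and SOX9 rose (0.21). The part of these markers in the results for the module was not tested.

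With siKLF10 present, most of the module fell with TGFβ in Panc1. Between siKLF10+TGFβ and siKLF10, 35 of 44 members fell (79.5%, against 22.3% of all genes) and 3 rose (6.82%, against 22.6%), with a member median of −0.82 and −0.0094 over all genes. This comparison uses the same siKLF10 libraries that stood high against siCont, so the counts are not independent of that rise. The 20 members that fell between TGFβ and siCont, a comparison that shares no library with this one, fell here too, which is 100% of the 20 and 57.1% of the 35, while over all genes the shares were 76.9% and 52%. The 3 that rose, GBP1 (1.1), IFI44 (0.68) and SAMD9 (0.29), had also risen between TGFβ and siCont (60% of the 5 there, against 80.1% over all genes), whereas SAMD9L fell by 0.61. The number that rose was 1 without siKLF10 C, 1 without siKLF10+TGFβ B and 1 without siKLF10+TGFβ C.

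IFITM1 measured 5.4, 4.48 and 4.16 CPM in siKLF10+TGFβ, against 30.8, 25.6 and 26.1 CPM in siKLF10 libraries. The groups stood as far apart as TGFβ and siCont did (log2 fold change −2.54 ± 0.12 SE, adjusted p = 1.19e-13). MX1 measured 1.65, 2.36 and 1.56 CPM in siKLF10+TGFβ, against 8.73, 11 and 9.39 CPM in siKLF10 libraries, a 5.24-fold fall without overlap (log2 fold change −2.39 ± 0.21 SE, adjusted p = 3.27e-09). XAF1 measured 2.7, 2.36 and 2.77 CPM in siKLF10+TGFβ, against 7.79, 13.3 and 10.6 CPM in siKLF10 libraries. All siKLF10+TGFβ libraries were lower (log2 fold change −2.02 ± 0.26 SE, adjusted p = 4.44e-06). OAS2 measured 0.988, 1.14 and 0.867 CPM in siKLF10+TGFβ, against 3.77, 3.47 and 3.79 CPM in siKLF10 libraries, again without overlap (log2 fold change −1.87 ± 0.25 SE, adjusted p = 2.01e-06). By role, all 4 sensors, all 4 IFIT genes, all 4 genes of the PARP group, both TRIM genes, both nuclear-body genes and all 3 fitted IFITM genes fell. Across the 51 members the summed level was 986 to 1010 CPM in siKLF10+TGFβ, against 1524 to 1566 CPM in siKLF10 libraries.

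The interaction subtracts the log2 difference between TGFβ and siCont from that between siKLF10+TGFβ and siKLF10. It was called for 15 members in Panc1, all negative (34.1% of 44, against 1.86% of all genes), and for 0 in the positive direction (against 2.56%). At an unadjusted p under 0.05 the interaction passed for 25 of 44 members, against 2450 of all 13218 genes. Of the 44 estimates, 42 were negative, with a median of −0.50 and −0.0065 over all genes. DESeq2 gave 0 positive calls as well. Without siCont library A the count was again 15, with TRIM22 at −2.49, XAF1 at −1.85 and SAMD9L at −1.46, and without each library in turn it was 11 to 16. TRIM22 measured 0.922, 0.815 and 0.694 CPM in siKLF10+TGFβ, 2.4, 1.96 and 1.82 CPM in siKLF10, 0.944, 0.719 and 0.816 CPM in TGFβ and 0.883, 0.472 and 0.266 CPM in siCont libraries. Only the siKLF10 group stood apart, giving an interaction of −1.94 ± 0.52 SE on the log2 scale, adjusted p = 0.0339. XAF1 measured 2.7, 2.36 and 2.77 CPM in siKLF10+TGFβ, 7.79, 13.3 and 10.6 CPM in siKLF10, 3.05, 1.92 and 2.72 CPM in TGFβ and 5.45, 3.62 and 2.26 CPM in siCont libraries, with an interaction of −1.48 ± 0.40 SE on the log2 scale, adjusted p = 0.0427. SAMD9L measured 7.77, 6.28 and 9.71 CPM in siKLF10+TGFβ, 10.8, 13.7 and 11.6 CPM in siKLF10, 7.41, 6.55 and 5.98 CPM in TGFβ and 4.93, 3.7 and 3.66 CPM in siCont libraries. It was higher with TGFβ without siKLF10 and lower with TGFβ in its presence, an interaction of −1.31 ± 0.23 SE on the log2 scale, adjusted p = 0.00168, called under all 16 alternatives tried. The other 12 were IFIT1 (−0.87), IFIT3 (−0.86), IRF1 (−0.8), DDX60 (−0.66), DTX3L (−0.63), IFIH1 (−0.58), OAS3 (−0.56), TRIM21 (−0.55), SP100 (−0.55), PARP9 (−0.54), PARP14 (−0.45) and UBE2L6 (−0.45). The interaction of IFITM1 was −0.05 ± 0.19 SE on the log2 scale, adjusted p = 0.923, and was not called.

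The calls of TRIM22 and XAF1 depended on single libraries. The TRIM22 interaction missed the threshold with DESeq2, without Panc1 siCont B or C, without Panc1 TGFβ A, B or C, without Panc1 siKLF10 A or without Panc1 siKLF10+TGFβ B or C (adjusted p 0.055 to 0.0969). That of XAF1 missed it with the library letters as a block, without Panc1 siCont B or C, without Panc1 TGFβ A or C, without Panc1 siKLF10 B or C or without Panc1 siKLF10+TGFβ A, B or C (adjusted p 0.0516 to 0.126).

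**Figure D5:**
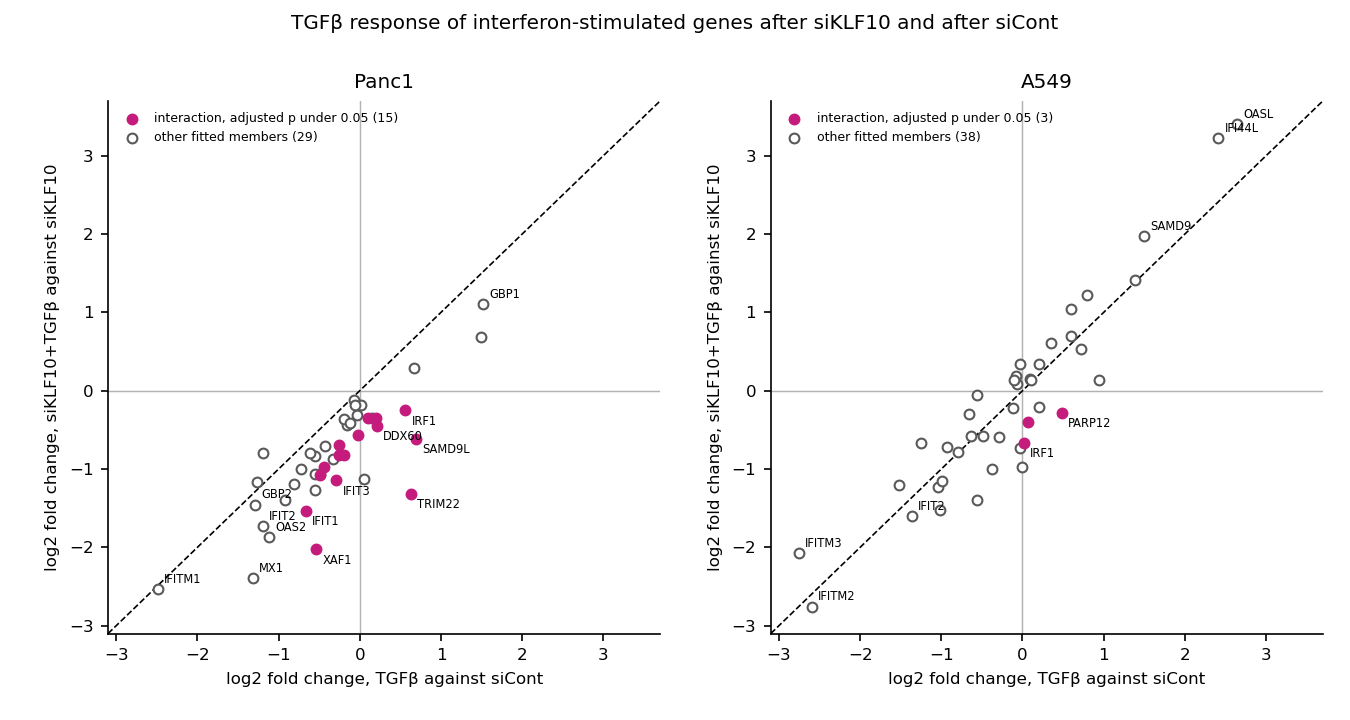
TGFβ response of each fitted member with siKLF10 (vertical axis, siKLF10+TGFβ against siKLF10) and without it (horizontal axis, TGFβ against siCont), as log2 fold changes per line, with the line of equality dashed and members with an adjusted p under 0.05 for the interaction in magenta. In Panc1 nearly all members lie below the line, while in A549 they scatter on both sides of it and only 3 are magenta.

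In A549, TGFβ moved the module in both directions. Between TGFβ and siCont, 11 of 41 fitted members rose (26.8%, against 24.2% of all genes) and 13 fell (31.7%, against 23.5%), and the member median was −0.073. The share of risers is near that of all genes, and the share of fallers is above it. The number that rose was 6 without siCont A, 6 without TGFβ A and 6 without TGFβ B. IFITM3 measured 0.603 and 1.04 CPM in TGFβ, against 5.58 and 5.07 CPM in siCont libraries. It was already low and fell 6.75-fold (log2 fold change −2.76 ± 0.35 SE, adjusted p = 8.62e-07). It passed the low-count filter in A549 only with libraries of groups without TGFβ, so the filter favoured its fall. IFITM2 measured 1.71 and 3.12 CPM in TGFβ, against 13 and 14.9 CPM in siCont libraries, a fall of similar size (log2 fold change −2.59 ± 0.24 SE, adjusted p = 6.32e-09). IFIT1 measured 3.42 and 3.41 CPM in TGFβ, against 9.57 and 10.1 CPM in siCont libraries. Both TGFβ libraries were lower (log2 fold change −1.52 ± 0.20 SE, adjusted p = 2.08e-06), as they were for IFIT2 (−1.37), IFIT3 (−0.93) and IFIT5 (−0.66). OASL, an OAS relative without synthetase activity that enhances RIG-I signalling, measured 5.83 and 6.23 CPM in TGFβ, against 0.943 and 0.962 CPM in siCont libraries. It rose 6.25-fold (log2 fold change 2.64 ± 0.28 SE, adjusted p = 6.51e-08), while OAS1 fell by 0.99 on the log2 scale.

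The other members that rose in A549 were IFI44L (2.41), SAMD9 (1.49), IFI44 (1.38), ISG15 (0.95), IRF7 (0.79), SP110 (0.72), SP100 (0.6), SAMD9L (0.59), PARP12 (0.49) and STAT2 (0.35). IFI44L stood at 15 and 7 counts in TGFβ, against 3 and 3 counts in siCont libraries. It passed the low-count filter in A549 only through groups with TGFβ, so the filter itself favoured its place among the risers. The other members that fell were IFI35 (−1.04), TRIM22 (−1.02), ISG20 (−0.79), PARP9 (−0.56), HERC6 (−0.56) and UBE2L6 (−0.29). Among 39 members fitted in both lines, IFI35, IFIT1, IFIT2, IFITM2, IFITM3, OAS1 and PARP9 fell with TGFβ in both. These 7 are 41.2% of the 17 that fell in Panc1 and 53.8% of the 13 that fell in A549, while over all genes the shares were 44.5% and 28.9%. IFI44, SAMD9 and SAMD9L rose in both, 60% of the 5 in Panc1 and 30% of the 10 in A549, against 56.2% and 32.4% over all genes, and ISG15 and SP110 fell in Panc1 and rose in A549.

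Markers of other cell types moved with TGFβ in A549 too. The leukocyte list, again CD14 only, summed to 1.31 to 1.63 CPM in TGFβ, against 5.29 to 5.34 CPM in siCont libraries, and CD14 fell (−1.88). All 4 fitted fibroblast markers rose, COL3A1 (2.13), LUM (2.48), PDGFRA (2.54) and FAP (3 counts or fewer in siCont), and their list summed to 9.79 to 12.2 CPM in TGFβ, against 0.962 to 1.6 CPM in siCont libraries. Of these, COL3A1, PDGFRA and FAP passed the low-count filter in A549 only with libraries of the TGFβ groups, so the filter favoured their rises. KRT7 (0.9) and SOX9 (1.23) rose as well. With siKLF10 present, CD14 fell by 1.2, and LUM (1.31), KRT7 (0.38) and SOX9 (1.5) rose, as did PDGFRA and FAP, which stood at 3 counts or fewer in siKLF10. Those libraries held 15.2 and 15.2 CPM of the fibroblast list in siKLF10+TGFβ, against 2.0 to 3.35 CPM in siKLF10. The part of these markers in the results for the module was not tested.

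With siKLF10 present, TGFβ again moved members of A549 in both directions. Between siKLF10+TGFβ and siKLF10, 9 members rose (22%, against 26.5% of all genes) and 15 fell (36.6%, against 26.8%). The 9 that rose had risen between TGFβ and siCont, a comparison with no library in common, and are 81.8% of the 11 there, against 80.7% over all genes. Of the 13 that fell there, 10 fell here (76.9%, against 77.1% over all genes), which is 66.7% of the 15, against 67.7%. These overlaps are near those of all genes. Among the risers, IFI44L passed the low-count filter only through groups with TGFβ, so the filter favoured its call. It had 10 and 21 counts in siKLF10+TGFβ, against 1 and 1 counts in siKLF10 libraries. OASL measured 15.8 and 14 CPM in siKLF10+TGFβ, against 1.56 and 1.12 CPM in siKLF10 libraries, a 10.6-fold rise (log2 fold change 3.4 ± 0.23 SE, adjusted p = 2.88e-11). SAMD9 measured 32.5 and 47 CPM in siKLF10+TGFβ, against 8.76 and 12.3 CPM in siKLF10 libraries, higher in both (log2 fold change 1.98 ± 0.24 SE, adjusted p = 5.14e-05). IFITM2 measured 2.02 and 1.35 CPM in siKLF10+TGFβ, against 10.4 and 11.4 CPM in siKLF10 libraries (log2 fold change −2.75 ± 0.24 SE, adjusted p = 2.61e-09). IFITM3 measured 0.809 and 0.812 CPM in siKLF10+TGFβ, against 3.04 and 4.04 CPM in siKLF10 libraries (log2 fold change −2.07 ± 0.34 SE, adjusted p = 2.39e-05). Neither IFITM gene overlapped between groups. Further rises were seen for IFI44L (3.22), IFI44 (1.42), IRF7 (1.22), SAMD9L (1.04), SP100 (0.7), STAT2 (0.61) and SP110 (0.54), and further falls for IFIT2 (−1.6), TRIM22 (−1.53), HERC6 (−1.39), IFI35 (−1.23), IFIT1 (−1.21), OAS1 (−1.15), GBP2 (−1.0), GBP1 (−0.97), ISG20 (−0.78), HERC5 (−0.73), IRF1 (−0.66), UBE2L6 (−0.59) and OAS3 (−0.4).

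The A549 libraries labelled siKLF10, in which KLF10 itself was not detectably lower, showed a small and mixed difference from siCont. Of 41 members, 4 rose (9.76%, against 9.57% of all genes) and 7 fell (17.1%, against 9.96%), with a member median of −0.20 and 0.0032 over all genes. The counts depended on the tool and on single libraries, with 1 higher and 2 lower in DESeq2. They were 1 and 4 without siCont A, 2 and 1 without siCont B, 1 and 2 without siKLF10 A, and 2 and 3 without siKLF10 B. HERC5 measured 6.6 and 6.14 CPM in siKLF10, against 3.34 and 3.94 CPM in siCont libraries (log2 fold change 0.82 ± 0.22 SE, adjusted p = 0.0101), and lost the call with DESeq2 (adjusted p = 0.108), without A549 siCont A (adjusted p = 0.121) and without A549 siKLF10 A (adjusted p = 0.123). HERC6 measured 12.8 and 13.4 CPM in siKLF10, against 7.47 and 8.31 CPM in siCont libraries, and remained called under every alternative tried (log2 fold change 0.73 ± 0.16 SE, adjusted p = 0.00219). Both HERC genes were higher in both siKLF10 libraries. IFI35, a leucine-zipper protein that pairs with NMI, measured 9.63 and 9.76 CPM in siKLF10, against 14.4 and 15.7 CPM in siCont libraries (log2 fold change −0.64 ± 0.15 SE, adjusted p = 0.00568), and lost the call with DESeq2 (adjusted p = 0.0651), without A549 siCont B (adjusted p = 0.0679) and without A549 siKLF10 A (adjusted p = 0.0661). ISG20, an exonuclease that degrades RNA, measured 15.9 and 14.5 CPM in siKLF10, against 22.3 and 22.9 CPM in siCont libraries (log2 fold change −0.56 ± 0.14 SE, adjusted p = 0.0066), and lost it without A549 siCont B (adjusted p = 0.0598) and without A549 siKLF10 B (adjusted p = 0.0714). IRF1 (0.36) and UBE2L6 (0.32) also rose, and OAS1 (−0.55), SP110 (−0.54), IFIT1 (−0.5), PARP9 (−0.45) and DTX3L (−0.39) fell. Of these, IFIT1, OAS1, PARP9 and DTX3L had risen with siKLF10 in Panc1, while HERC6 and UBE2L6 rose in both lines (50% of the 4 risers in A549, against 25% over all genes, and 8.33% of the 24 in Panc1, against 14.3%).

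Under TGFβ in A549, where KLF10 was lower with the siRNA, 3 members rose between siKLF10+TGFβ and TGFβ (7.32%, against 14.4% of all genes) and 9 fell (22%, against 13.9%). OASL measured 15.8 and 14 CPM in siKLF10+TGFβ, against 5.83 and 6.23 CPM in TGFβ libraries. The TGFβ-raised level was thus 2.46-fold higher again with the siRNA (log2 fold change 1.3 ± 0.17 SE, adjusted p = 9.09e-06). SAMD9 measured 32.5 and 47 CPM in siKLF10+TGFβ, against 23.7 and 16.8 CPM in TGFβ libraries (log2 fold change 0.97 ± 0.21 SE, adjusted p = 0.0079), and SAMD9L rose by 0.56. GBP1 measured 2.63 and 2.38 CPM in siKLF10+TGFβ, against 5.63 and 4.01 CPM in TGFβ libraries (log2 fold change −0.99 ± 0.25 SE, adjusted p = 0.00512), a call lost without A549 TGFβ A (adjusted p = 0.19). IFI35 measured 4.86 and 3.68 CPM in siKLF10+TGFβ, against 7.34 and 7.27 CPM in TGFβ libraries (log2 fold change −0.82 ± 0.20 SE, adjusted p = 0.00364), a call lost without A549 siKLF10+TGFβ B (adjusted p = 0.0802). All 4 named genes were separated between groups. The other members that fell were GBP2 (−0.82), SP110 (−0.72), OAS1 (−0.71), PARP12 (−0.66), OAS3 (−0.65), ISG20 (−0.55) and IRF1 (−0.32).

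Interactions in A549 were called for 3 members, all negative (7.32%, against 3.23% of all genes), and for 0 in the positive direction (against 3.26%). At an unadjusted p under 0.05, 10 of 41 members passed, against 2804 of all 14124 genes. The member median was 0.037. DESeq2 called 1 negative and 0 positive, and without siKLF10+TGFβ A the counts were 7 negative and 4 positive. The negative count was 0 without siCont B, without TGFβ A, without TGFβ B or without siKLF10 B, and 1 without siCont A or without siKLF10 A. PARP12, an ADP-ribosyltransferase, measured 14.2 and 10.1 CPM in siKLF10+TGFβ, 13.2 and 15.9 CPM in siKLF10, 18.5 and 18.8 CPM in TGFβ and 12.7 and 14 CPM in siCont libraries (−0.77 ± 0.23 SE on the log2 scale, adjusted p = 0.0446). IRF1, a transcription factor induced by interferon gamma, measured 19 and 19.7 CPM in siKLF10+TGFβ, 29.1 and 32.8 CPM in siKLF10, 24.5 and 24 CPM in TGFβ and 24.1 and 23.8 CPM in siCont libraries (−0.68 ± 0.16 SE on the log2 scale, adjusted p = 0.0134). OAS3 measured 83 and 79.5 CPM in siKLF10+TGFβ, 106 and 108 CPM in siKLF10, 131 and 123 CPM in TGFβ and 125 and 117 CPM in siCont libraries (−0.47 ± 0.12 SE on the log2 scale, adjusted p = 0.0171). For IRF1 and OAS3 both siKLF10+TGFβ libraries lay below all others, while for PARP12 they overlapped the siKLF10 and siCont libraries. PARP12 lost the call with DESeq2, without A549 siCont A or B, without A549 TGFβ A or B, without A549 siKLF10 A or B or without A549 siKLF10+TGFβ B (adjusted p 0.0688 to 0.173), and its interaction was −0.50 without siKLF10+TGFβ B. IRF1 lost it with DESeq2, without A549 siCont A or B, without A549 TGFβ A or B or without A549 siKLF10 B (adjusted p 0.0555 to 0.0857), and OAS3 without A549 siCont B, without A549 TGFβ A or B or without A549 siKLF10 A or B (adjusted p 0.0503 to 0.131). In Panc1 the interactions of IRF1 and OAS3 were −0.8 and −0.56, both called.

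The difference between lines was tested directly. The siKLF10 effect without TGFβ was greater in Panc1 than in A549 for 17 of 46 members (37%, against 8.59% of all genes) and smaller for 0 (against 8.65%), with a member median of 0.70 and 0.01 over all genes. Among the 39 members fitted in each line by itself it was greater for 16 (41%, against 10.1% of genes fitted in both) and smaller for 0 (against 9.94%). KLF10 itself differed in the same comparison (−0.68 ± 0.10 SE on the log2 scale, adjusted p = 8.09e-06), so the contrast sets a line with lower KLF10 against one in which it was not detectably lower. At an unadjusted p under 0.05, 25 of 46 members passed, against 4454 of all 15058 genes, and DESeq2 called 15 greater and 0 smaller. Without A549 siKLF10 A, 10 members were called. IFIT1 measured 6.42 and 7.67 CPM in A549 siKLF10 and 9.57 and 10.1 CPM in A549 siCont libraries, against the 2.7-fold rise in Panc1 given above. The difference of its effects was 1.96 ± 0.18 SE on the log2 scale, adjusted p = 2.93e-09, called under all 14 alternatives tried. IFI6 measured 5.9 and 8.65 CPM in A549 siKLF10 and 7.18 and 9.71 CPM in A549 siCont libraries, which overlapped, and its difference was 2.2 ± 0.48 SE on the log2 scale, adjusted p = 0.00663, lost without A549 siKLF10 A (adjusted p = 0.0551). OAS2 measured 0.26 and 0.418 CPM in A549 siKLF10 and 0.943 and 0.262 CPM in A549 siCont libraries, at most 13 counts. It was too low to fit in A549 by itself and entered the joint fit through Panc1, where it differed, and its estimate was 2.54 ± 0.77 SE on the log2 scale, adjusted p = 0.0203. The OAS2 call was lost without A549 siCont A (adjusted p = 0.54) and without A549 siKLF10 A (adjusted p = 0.145), and the estimate was 1.31 without A549 siCont A. Without Panc1 siCont A, 18 members were called, with OAS2 at 2.68, IFI6 at 2.27 and IFIT1 at 1.96. The other 14 were OAS1 (1.55), SAMD9L (1.47), PARP9 (1.15), DDX60 (1.1), IRF9 (0.86), IFIH1 (0.8), IFI35 (0.75), ISG20 (0.75), SP100 (0.75), DTX3L (0.71), DDX58 (0.7), PARP14 (0.64), IFIT5 (0.56) and STAT2 (0.41).

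Under TGFβ, the siKLF10 effect was greater in Panc1 for 4 members (8.7%, against 7.52% of all genes) and smaller for 0 (against 12.3%). At an unadjusted p under 0.05, 8 of 46 members passed, against 4748 of all 15058 genes. DESeq2 called 3 greater and 0 smaller. Among the 39 members fitted in each line the 4 were 10.3%, against 8.75% of genes fitted in both, and 0 were smaller, against 14.5%. OAS1 measured 2.44, 2.2 and 2.08 CPM in Panc1 siKLF10+TGFβ and 1.67, 1.52 and 1.56 CPM in Panc1 TGFβ libraries, and 27.1 and 25.8 CPM in A549 siKLF10+TGFβ and 45.2 and 41 CPM in A549 TGFβ libraries. All Panc1 siKLF10+TGFβ libraries lay above the TGFβ libraries, a comparison that was not called (log2 fold change 0.5 ± 0.22 SE, adjusted p = 0.0674), and OAS1 fell in A549 (−0.71). The difference was 1.18 ± 0.23 SE on the log2 scale, adjusted p = 0.000302, called under all 14 alternatives. GBP1 gave 1.09 ± 0.35 SE on the log2 scale, adjusted p = 0.0261, with the Panc1 siKLF10+TGFβ libraries at 2.11, 2.04 and 2.34 CPM, inside or just above the range of the Panc1 TGFβ libraries at 2.25, 2.0 and 1.63 CPM, and the A549 levels given above. IFIT1 measured 10.9, 11.4 and 10.5 CPM in Panc1 siKLF10+TGFβ and 7.77, 7.51 and 6.87 CPM in Panc1 TGFβ libraries, and 3.04 and 2.98 CPM in A549 siKLF10+TGFβ and 3.42 and 3.41 CPM in A549 TGFβ libraries. Its difference was 0.71 ± 0.25 SE on the log2 scale, adjusted p = 0.0463, and that of IRF9 was 0.47. GBP1 lost the call with DESeq2, without Panc1 TGFβ C, without Panc1 siKLF10+TGFβ C, without A549 TGFβ A or without A549 siKLF10+TGFβ B (adjusted p 0.0548 to 0.255). IFIT1 lost it with no filter on low counts, with DESeq2, without Panc1 TGFβ B or C, without Panc1 siKLF10+TGFβ B, without A549 TGFβ A or B or without A549 siKLF10+TGFβ A or B (adjusted p 0.0524 to 0.216). The count of 4 was 1 without Panc1 TGFβ C or without A549 siKLF10+TGFβ B, and 2 without Panc1 siKLF10+TGFβ B, A549 TGFβ A or A549 TGFβ B, and 1 member was called on the negative side without siKLF10+TGFβ A of Panc1 or of A549.

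The TGFβ response without siKLF10 differed between lines for 13 members, with 8 more positive in Panc1 (17.4%, against 17.1% of all genes) and 5 more negative (10.9%, against 13.8%). Among the 39 members fitted in each line the shares were 20.5% and 12.8%, against 19.9% and 15.4% of genes fitted in both. These shares are close to the background. OASL measured 0.145, 0.24 and 0.476 CPM in Panc1 TGFβ and 0.515, 0.866 and 0.665 CPM in Panc1 siCont libraries, low in both and not called (log2 fold change −1.19 ± 0.53 SE, adjusted p = 0.0992), while in A549 it rose as described. Its difference, Panc1 minus A549, was −3.75 ± 0.58 SE on the log2 scale, adjusted p = 4.79e-06, called under all 14 alternatives. IFITM3 fell less in Panc1 than in A549 (2.29 ± 0.62 SE on the log2 scale, adjusted p = 0.0104), a call lost without A549 TGFβ A (adjusted p = 0.123). TRIM22 gave 1.73 ± 0.56 SE on the log2 scale, adjusted p = 0.018, with 0.944, 0.719 and 0.816 CPM in Panc1 TGFβ and 0.883, 0.472 and 0.266 CPM in Panc1 siCont libraries, and 1.41 and 0.742 CPM in A549 TGFβ and 2.18 and 2.45 CPM in A549 siCont libraries. The TRIM22 groups overlapped in Panc1 and were separated in A549, and the call was lost without Panc1 siCont C (adjusted p = 0.0638) and without A549 TGFβ B (adjusted p = 0.0862). The others were GBP1 (1.6), IFITM2 (1.4), IFIT1 (0.94), IRF1 (0.62), IFIT5 (0.59) and UBE2L6 (0.48) on the positive side and ISG15 (−1.35), SP110 (−1.19), IRF9 (−0.73) and STAT2 (−0.46) on the negative side. The number on the positive side was 4 without A549 TGFβ A. Without Panc1 siCont A, 8 were positive and 6 negative, with OASL at −3.91, IFITM3 at 2.27 and TRIM22 at 2.27.

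Other genes of the interferon pathway, taken from a list by function, were read beside the members. Of 9 interferon genes, 8 were too low to fit in either line. Together those 8, which include IFNB1, the interferon that epithelial cells make on sensing RNA, had 25 counts over all 20 libraries, and no library had more than 7 of any of them. Only IFNE, an interferon of the reproductive tract, was fitted, and it was not called with siKLF10 in Panc1 (0.11). Of 9 receptor and kinase genes, 1 rose with siKLF10 in Panc1 (11.1%, against 17.3% of all genes), the type I receptor chain IFNAR1 (0.22), and 0 fell (against 18.3%).

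The signalling genes were read in the same comparison of siKLF10 and siCont in Panc1. Among other transcription factors STAT3 fell (−0.96), which serves cytokines of the interleukin 6 family. Of 8 inhibitors, 0 rose and 1 fell (12.5%, against 18.3% of all genes), PTPN1 (−0.45), a phosphatase that acts on JAK kinases. Of 8 fitted sensors and adaptors outside the module, 2 rose (25%, against 17.3%) and 0 fell, among the risers MAVS (0.44), the adaptor of RIG-I and MDA5. In A549 the inhibitors SOCS1 (2.12) and SOCS2 (0.91), which bind cytokine receptors and their kinases, rose between TGFβ and siCont, while the RNA receptor TLR3 (−1.05) and the kinase JAK2 (−0.94) fell. SOCS1 passed the low-count filter in A549 only with libraries of the TGFβ groups, so the filter favoured its rise. IFNE measured 7.49 and 13 CPM in A549 siKLF10+TGFβ, against 3.62 and 3.26 CPM in TGFβ libraries, higher in both (log2 fold change 1.62 ± 0.32 SE, adjusted p = 0.00229).

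Among 41 other interferon-induced genes outside the module, 30 were fitted in Panc1, and 8 rose (26.7%, against 17.3% of all genes) and 3 fell (10%, against 18.3%) with siKLF10, with a median log2 fold change of 0.091. In the module 28 of 44 rose in the same libraries, and the difference between the lists was not tested. The risers included GBP4 (1.94), GBP3 (0.78), TMEM140 (0.77) and NMI (0.56), the partner of IFI35, and RNF213 was among those that fell (−0.6). GBP4 passed the low-count filter in Panc1 only with libraries of the groups given siKLF10, so the filter favoured its rise. Between siKLF10+TGFβ and TGFβ, 5 of the 30 rose (16.7%, against 21.1%) and 11 fell (36.7%, against 20.6%). Between siKLF10+TGFβ and siKLF10, 1 rose (3.33%, against 22.6%) and 19 fell (63.3%, against 22.3%), and between TGFβ and siCont 1 rose (3.33%, against 14%) and 7 fell (23.3%, against 15.1%). TAP1, the antigen-processing transporter next to PSMB8 and PSMB9 in the HLA region, was likewise listed at 0 in the count files, which is not read as absent expression.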

How the data were processed

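The deposited files held raw read counts per gene for each of the 20 libraries, which the authors made with TopHat, Bowtie2 and HTSeq 0.6.0 on build hg19, per the submitters' processing notes. The labels' protocols describe polyadenylated RNA prepared with a directional kit. The authors also deposited DESeq2 tables with a base-mean signal, a log2 fold change or a fold ratio, and an adjusted p-value per gene, per the file headers; these were read only for the mismatch described among the other observations. Summary lines were kept out of library sizes, and reads without a gene made up 33.6 to 36.9% of the Panc1 and 57.6 to 60.1% of the A549 totals.

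Counts were fitted with edgeR 4.0.16 (R 4.3.3; filterByExpr at a minimum count of 10, TMM scaling, robust quasi-likelihood test) in 1 model per line over 4 groups, and in 1 joint model over 20 libraries for line differences, on 13218, 14124 and 15058 genes. The fit was tested on simulated data first. Adjusted p-values are Benjamini-Hochberg over all genes of a fit. The SE of a log2 fold change is its absolute value divided by the square root of the F statistic. Fitted fold changes of genes with few counts depend on edgeR's prior count. Alternatives were DESeq2 1.42.0, median-of-ratios scaling, no filter, the library letter as a block, and leaving out each library. Taken over all groups, same-letter libraries did not deviate together in Panc1 (median r −0.0418, range −0.493 to 0.69 over 18 pairs). Between Panc1 siKLF10+TGFβ and siKLF10 they did for A (0.69) and B (0.42), but not for C (−0.0311). There, siKLF10+TGFβ C went with siKLF10 B (0.56). The A549 values were −0.0208 to 0.29. The letters were not taken as pairs, and a shared deviation within the siKLF10 groups of Panc1 is not modelled in the main fit. Replicates of a group differed by more than sampling noise (chi-square test of their counts), and each was counted.

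Values per library are given for the 4 called members with the largest absolute log2 fold change in each comparison within a line, and for 3 in each interaction or line comparison, among members averaging at least 1 CPM. IFIT1 and IFITM3 with siKLF10 in Panc1, and IFI44L, were added after their values were seen. The members, gene lists and tests were chosen with earlier results of these data known. Promoter sequences are RefSeq's, from build GRCh38.p14, and no coordinate was taken from the hg19 files.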

Additional observations from a re-analysis of the deposited data

Results flagged for a closer look

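Of the 15 members whose TGFβ response differed with siKLF10 in Panc1 by edgeR's interaction term, the 3 with the largest log2 values among those averaging at least 1 CPM were TRIM22 (−1.94), XAF1 (−1.48) and SAMD9L (−1.31). In A549 the same term passed for PARP12 (−0.768), IRF1 (−0.683) and OAS3 (−0.466). Those of TRIM22, XAF1, PARP12, IRF1 and OAS3 were lost when single libraries were left out, and that of SAMD9L was not.

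The TGFβ response differed between lines, Panc1 minus A549, for OASL (−3.75), IFITM3 (2.29) and TRIM22 (1.73). The siKLF10 effect without TGFβ differed for OAS2 (2.54, too low to fit in A549 by itself), IFI6 (2.2) and IFIT1 (1.96), and under TGFβ for OAS1 (1.18), GBP1 (1.09) and IFIT1 (0.714). Among these line differences, those of OASL, OAS1 and, without TGFβ, IFIT1 were called under every alternative tried. A549 libraries labelled siKLF10 did not have detectably lower KLF10 without TGFβ, and its part in the line differences was not tested. Groups of 2 or 3 libraries are too small for a search for outlying samples.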

How the results depend on the processing

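Of 50 effects of named members, 34 were called under every alternative tried, 16 lost the call under at least 1, as given beside each in the report, and 0 changed sign. Of 28 counts of called members, 17 stayed within 1.5-fold of the reported count under every alternative. DESeq2 moved 3 counts in A549, giving 1 higher and 2 lower with siKLF10 and 1 negative interaction. Without the filter on low counts, 11 members had a more negative TGFβ response in Panc1 than in A549, against 5 with it. With the library letter as a block, 28 members rose and 2 fell with siKLF10 in Panc1 and 14 interactions were negative there, and the only call of a named member that ended was the XAF1 interaction (adjusted p = 0.0637).

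Leaving out each library in turn gave 1 to 3 members higher between siKLF10+TGFβ and siKLF10 in Panc1. In A549 it gave 6 to 10 higher between TGFβ and siCont, 1 to 2 higher and 1 to 4 lower between siKLF10 and siCont, and 0 to 4 positive and 0 to 7 negative interactions. For the line differences, Panc1 minus A549, it gave 4 to 8 positive for the TGFβ response, 10 to 18 positive for the siKLF10 effect without TGFβ, and 1 to 4 positive and 0 to 1 negative for that under TGFβ. Where this left 1 library in a group, that library was assumed to vary like those of the other groups.

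Members at a few counts per library, such as OAS2 in A549, are limited by depth, and 2 libraries per group limit every A549 result.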

Other observations

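Of the comparison tables that accompany the counts, one could not be matched to them. In the authors' deposited table of TGFβ against siControl in A549, the base mean differed by more than 2-fold from the mean of the count files for 45.0% of the 13125 genes compared, after removal of the median offset. In the authors' deposited tables for all 3 Panc1 comparisons and for siKLF10+TGFβ and TGFβ in A549, this share was 0%. In the authors' deposited table of siKLF10 against Cont in A549, which lists 26502 entries, it was 9.93%. The authors' deposited table of TGFβ against siControl in A549 lists IFITM1 at a base mean of 650, where the count files hold 0 and 0 counts in TGFβ, against 2 and 4 counts in siCont libraries. The same authors' deposited table lists IFITM3 at a base mean of 1715, where the count files hold 6 to 7 counts in TGFβ, against 58 to 77 counts in siCont libraries. For GBP2, a GTPase, the authors' deposited table gives a log2 fold change of 2.87, and the count files hold 65 to 101 counts in TGFβ, against 159 to 166 counts in siCont libraries. The results above rest on the count files, and what that table was made from was not tested.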
